A study of Mus musculus with 20 samples.

Results

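The 9 genes Prdm16, Ebf1, Ebf2, Ebf3, Zic1, Tbx15, Lhx8, Nfia and Zfp516 encode nuclear regulators known from the making and upkeep of brown fat cells. They were chosen by name from the 55471 gene IDs of the count tables, and all 9 were found and passed the filter on low counts. The tables cover RNA of mouse brown adipose tissue (BAT) in 20 libraries, 5 in each of 4 groups. Wild-type (WT) mice were sampled at room temperature (RT) or after 4 hours of cold, and so were mice with a knockout (KO) of CEBPB restricted to adipose tissue. CEBPB, or C/EBP beta, is a leucine zipper factor that binds PRDM16 and acts in fat cell differentiation. The labels give neither the Cre driver of the knockout nor the age, sex or strain of the animals, nor how cold it was. They do not state that each library came from a separate animal, so p-values measure the spread between libraries, which may in part be technical.

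Brown fat cells burn fuel for heat through UCP1 and share an embryonic origin in the dermomyotome with skeletal muscle and dermis. EBF2 and NFIA are known to open brown-specific enhancers and to help PPARG bind there, while PRDM16 holds together a complex that switches on brown genes and represses genes of other lineages. ZIC1, LHX8 and TBX15 are marker factors of the classical brown depots, and ZFP516 is known as a factor induced by cold that binds the Ucp1 promoter.

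Within 4 hours of cold some of the 9 factors rose and others fell. In WT mice 8 of 9 changed at an adjusted p under 0.05 by edgeR's quasi-likelihood test, against 56.4 percent of the 15233 genes tested. Ebf1 and Zfp516 rose (2 of 9, against 26.2 percent), and Ebf2, Lhx8, Ebf3, Tbx15, Zic1 and Prdm16 fell (6 of 9, against 30.2 percent). The median factor changed by -0.39 on the log2 scale and the median gene by -0.05. In KO mice 7 of 9 changed with cold, against 59.2 percent of genes. There Ebf1, Zic1 and Zfp516 rose (3 of 9, against 27.5 percent), Ebf2, Ebf3, Nfia and Prdm16 fell (4 of 9, against 31.7 percent), and the median was -0.30. The 5 RT and 5 cold libraries did not overlap for 3 factors in WT, against 38.2 percent of genes, and for 5 in KO, against 44.9 percent. A share near that of all genes is no result about the factors as a set. The comparisons of genotype reuse the same 20 libraries. Throughout, values after ± are standard errors for log2 changes and SDs for means over the 5 libraries of a group.

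Genotype changed fewer of the factors. At RT 1 of 9 differed, against 2.70 percent of genes: Zic1 was lower in KO (1.32 percent of genes were lower), and its libraries did not overlap, as for 4.98 percent of genes. After cold 4 of 9 differed, against 7.70 percent of genes. Ebf3 and Lhx8 were higher in KO (2 of 9, against 3.51 percent), and Ebf2 and Nfia were lower (2 of 9, against 4.19 percent). Zic1 was the 1 of 9 with an interaction, meaning that its response to cold differed between genotypes, against 0.742 percent of genes in either direction and 0.427 percent in the same direction. These shares describe 9 genes picked for their function with earlier results of the data in view, so no test of the list was made.

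The libraries held 27070755 to 55184989 counts on genes. Cebpb, the targeted gene, averaged 104 ± 19.9 CPM (the count over the library total scaled by trimmed mean of M values, n = 5) in WT at RT and 0.564 ± 0.253 in KO at RT. After cold it averaged 144 ± 22.4 CPM in WT and 1.92 ± 0.278 in KO, with every WT library at 75.5 CPM or more and every KO library at or below 2.27. Ucp1, the defining gene of brown fat, averaged 6372 CPM in WT at RT. The 7 white adipocyte markers summed to 32.7 to 62.5 CPM in those libraries, led by Retn at 27.8 CPM. Of them Wt1 had no count in any library, which allows up to 0.111 CPM in the shallowest. On the first principal component, which split the temperatures, WT RT replicate 4 and WT cold replicate 5 lay nearest the middle of their own genotype. In bulk tissue, fewer cells of a type and less RNA per cell cannot be told apart for any of the genes below.

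Levels of different genes were compared per kilobase of merged exons (CPM per kb). In WT at RT the order was Nfia (18.2 ± 1.49, SD), Ebf1 (16.2 ± 2.37), Ebf2 (14.1 ± 1.78), Ebf3 (6.92 ± 0.414), Prdm16 (4.93 ± 1.0), Zic1 (2.11 ± 0.436), Zfp516 (1.73 ± 0.228), Tbx15 (1.17 ± 0.301) and Lhx8 (1.02 ± 0.211). The libraries of Nfia, Ebf1 and Ebf2 overlapped from each neighbour to the next, as did those of the last 4 genes, while Ebf3 and Prdm16 each stood apart from both neighbours. Over all 20 libraries Ebf1 lay at percentile 89.4 of the tested genes by level per length, Nfia at 88.5 and Lhx8, the lowest, at 32.4. After cold Ebf1 led in both genotypes, at 21.6 ± 2.15 CPM per kb in WT and 23.3 ± 2.20 in KO. Its libraries overlapped those of Nfia in WT cold and lay above all of them in KO cold.

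**Figure D1:**
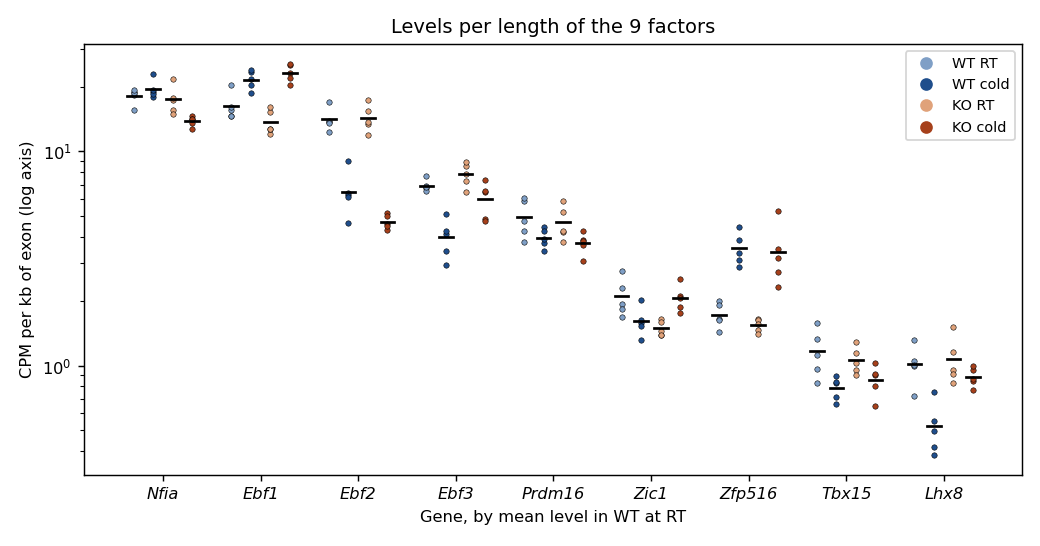
Level per length of each factor, in CPM per kilobase of merged exons on a log axis, with 1 point per library in 4 groups and a bar at the mean of 5. Genes run from left to right by their mean in WT at RT, from Nfia at 18.2 to Lhx8 at 1.02.

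The EBF proteins are helix-loop-helix factors with a shared DNA-binding domain, and EBF2 is the member used to mark brown preadipocytes. Ebf2 (chr14:67233292-67430918, plus strand, GRCm38) fell with cold in both genotypes. In WT its 5 libraries, in replicate order, held 94.9, 95.6, 118, 93.8 and 85.3 CPM at RT and 44.1, 32.0, 43.5, 42.6 and 62.7 CPM after cold. The groups did not overlap, and the highest cold library was replicate 5. Ebf2 fell by 53.9% in WT, with a log2 change of -1.12 ± 0.14 and an adjusted p of 8.80e-07. In KO it went from 92.6, 120.2, 94.5, 82.2 and 107 CPM at RT to 31.8, 35.6, 34.5, 29.6 and 31.1 CPM after cold. Again the groups did not overlap, and the 5 cold libraries lay close together. The fall in KO was 67.3%, a log2 change of -1.61 ± 0.14 (adjusted p = 9.11e-09).

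At RT the libraries of the genotypes overlapped in Ebf2, with a log2 difference of 0.03 ± 0.13 (95% interval -0.25 to 0.31). After cold Ebf2 was lower in KO than in WT, with a log2 difference of -0.47 ± 0.14 and an adjusted p of 0.0393, and the libraries overlapped. That call was lost in 9 of the 10 fits without 1 library of those groups, and was kept without WT cold replicate 2 (adjusted p = 0.00531). It was also lost without both intermediate WT libraries (-0.32, adjusted p = 0.133) and with the replicate number as a block (adjusted p = 0.0645). The difference between the KO and WT responses was -0.49 ± 0.19 and did not pass (adjusted p = 0.350).

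Ebf1 (chr11:44617317-45008091, plus strand), named for its part in B cell development and also active in adipogenesis, moved the other way. In WT it held 142, 143, 151, 198 and 157 CPM at RT and 228, 183, 198, 234 and 212 CPM after cold. Only WT RT replicate 4 reached into the cold range. Ebf1 rose 1.33-fold in WT (log2 0.41 ± 0.10, adjusted p = 0.00114). In KO its libraries held 148, 118, 124, 124 and 157 CPM at RT and 226, 199, 216, 246 and 251 CPM after cold. Those groups did not overlap, and Ebf1 rose 1.69-fold (log2 0.76 ± 0.10, adjusted p = 1.02e-06). Between genotypes the log2 difference was -0.24 at RT (adjusted p = 0.261) and 0.11 after cold (adjusted p = 0.611).

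B cells also express Ebf1. The 6 B cell markers summed to 1.84 to 3.25 CPM in the WT RT libraries and 0.617 to 1.05 CPM after cold, and to 1.85 to 2.83 and 0.711 to 1.22 CPM in KO. Of the 5 tested, 5 fell with cold in WT and 4 in KO, against 30.2 and 31.7 percent of all genes. The part of B cells in the values of Ebf1 was not tested.

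Ebf3 (chr7:137193673-137314445, minus strand), best known from neural development, fell in both genotypes. In WT it held 62.0, 60.6, 70.4, 63.3 and 63.0 CPM at RT and 38.1, 27.3, 31.8, 47.2 and 39.4 CPM after cold. The WT groups did not overlap. Ebf3 fell by 42.5% in WT (log2 -0.80 ± 0.14, adjusted p = 5.12e-05). In KO it held 67.1, 72.6, 59.5, 78.8 and 82.2 CPM at RT and 44.8, 43.5, 59.8, 68.0 and 60.0 CPM after cold. The KO groups overlapped, with cold replicates 1 and 2 below the other cold libraries. The KO fall was -0.38 ± 0.14 on the log2 scale (adjusted p = 0.0199) and was lost without KO RT replicate 2, 4 or 5 or KO cold replicate 1 or 2, where adjusted p ran up to 0.0881.

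After cold Ebf3 was higher in KO than in WT, by 0.59 ± 0.14 on the log2 scale (adjusted p = 0.00914), with overlapping libraries. The adjusted p was 0.0624 when only these 2 groups were fitted. The interaction, 0.41 ± 0.19, did not pass (adjusted p = 0.471). Markers of fibroblasts and adipocyte progenitors also stood higher in KO after cold: their 10 genes summed to 929.8 to 1038 CPM against 752 to 854 in WT. Of the 10, 3 were called higher in KO (Pdgfra, Dcn and Lum), against 3.51 percent of all genes. With the mean of those markers as a term, an alternative chosen after seeing the data, the Ebf3 difference was 0.60 with an adjusted p of 0.108. Its size was thus near the 0.59 without the term. The marker sums did not overlap between these 2 groups, so the term cannot be told apart from genotype here. The part of the markers' cells in the Ebf3 difference was not tested.

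As fractions of the summed EBF level per length, the 3 EBF genes stood in other proportions after cold than at RT. Ebf1 made up 43.4 ± 4.40% (SD, n = 5) of it in WT at RT and 67.5 ± 3.39% after cold. Ebf2 went from 37.7 ± 3.67% to 20.1 ± 3.46%, and Ebf3 from 18.6 ± 1.0% to 12.3 ± 1.31%. In KO the Ebf1 share was 38.3 ± 3.65% at RT and 68.4 ± 2.05% after cold, and the Ebf2 share was 39.8 ± 4.28% and 13.9 ± 2.14%. The ratio of Ebf1 to Ebf2 went from 1.17 ± 0.234 to 3.45 ± 0.661 in WT and from 0.976 ± 0.173 to 5.01 ± 0.824 in KO, with no overlap between temperatures. The shares of Ebf1 and Ebf2 did not overlap between temperatures in either genotype. The summed level went from 37.3 ± 2.94 to 32.1 ± 3.88 CPM per kb in WT and from 36.0 ± 3.17 to 34.1 ± 2.82 in KO, and its libraries overlapped between temperatures in both. Ebf4 stayed under 0.5% of the family in every library.

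**Figure D2:**
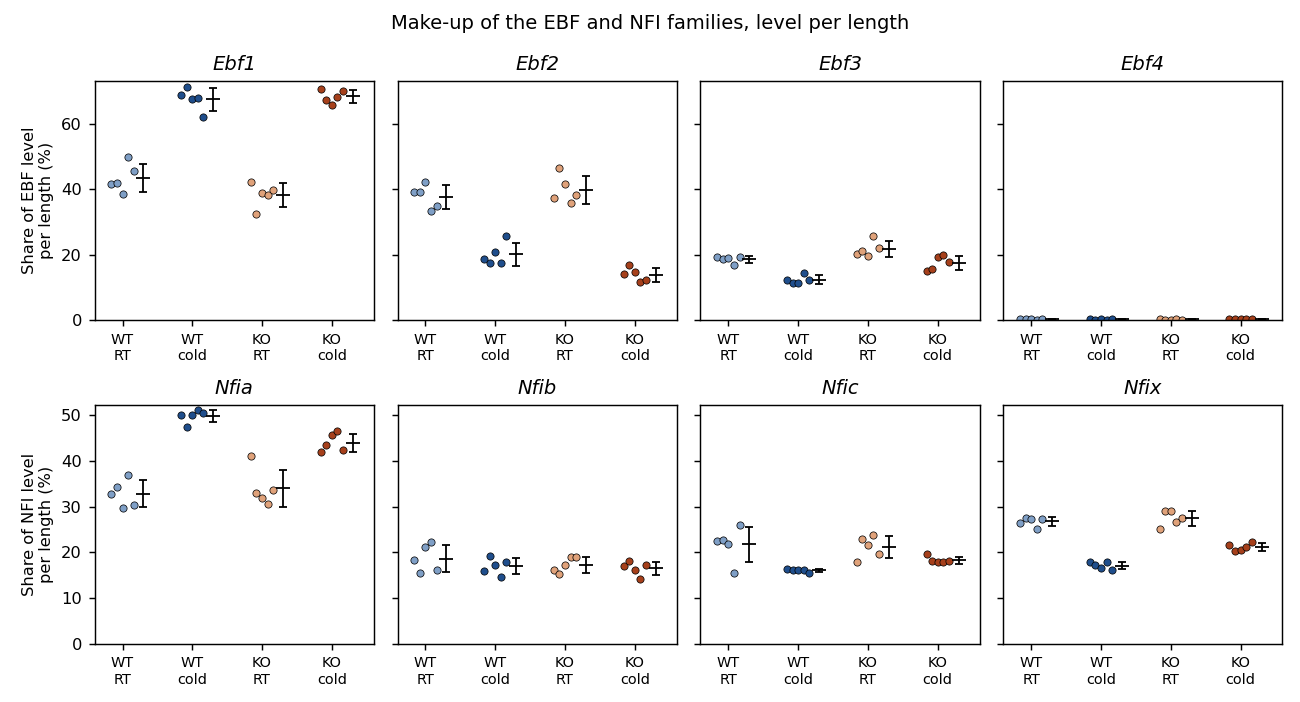
Share of each gene in the summed level per length of its family, EBF in the upper row and NFI in the lower, in percent. Points are libraries and bars the mean ± SD of 5; the Ebf1 share is higher and the Ebf2 share lower in every cold library, and the mean Nfia share is 32.8% in WT RT and 49.9% in WT cold.

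Antisense genes overlap exons of 2 EBF members, Gm10860 with Ebf2 over 424 bases and Gm45278 with Ebf3 over 355 bases. Counting without strand gave 82.8% of the strand-specific count for Ebf2 and 87.3% for Ebf3, and the reverse-strand column was used because the kit marks strand. On unstranded counts Ebf2 stood at 11.8 CPM per kb in WT at RT in place of 14.1, and each change of the 3 EBF genes kept its side of the threshold.

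RefSeq promoter sequences (build GRCm38.p6, 250 bases before to 50 after a start) were searched here for 6 members, and not for Ebf2, Tbx15 and Zfp516. They are shown for Ebf3, the only one of these with a match to the EBF core motif, and for Zic1, the only member with an interaction between knockout and cold. Both are printed 5′ to 3′ on the gene's own strand, which is minus for both, and capitals mark the EBF match.
Ebf3 promoter, chr7:137314396-137314695: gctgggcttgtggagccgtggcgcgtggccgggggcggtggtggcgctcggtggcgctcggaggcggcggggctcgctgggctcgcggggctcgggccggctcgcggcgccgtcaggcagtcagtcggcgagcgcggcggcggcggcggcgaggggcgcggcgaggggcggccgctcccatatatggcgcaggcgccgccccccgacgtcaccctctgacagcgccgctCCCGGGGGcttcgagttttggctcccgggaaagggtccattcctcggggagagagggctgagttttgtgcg
Zic1 promoter, chr9:91365719-91366018: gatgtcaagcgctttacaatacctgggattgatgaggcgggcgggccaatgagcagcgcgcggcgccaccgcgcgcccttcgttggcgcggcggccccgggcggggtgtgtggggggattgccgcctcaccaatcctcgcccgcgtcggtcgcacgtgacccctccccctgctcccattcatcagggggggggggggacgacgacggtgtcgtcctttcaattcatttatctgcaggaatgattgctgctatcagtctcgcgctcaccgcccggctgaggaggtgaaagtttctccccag

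The motif CCCNNGGG, sought on both strands, began at position -21 from the start in Ebf3 and is held by 13.7% of all 32851 promoters in the table. TTGCNNAA, a core motif of C/EBP factors, and TGACGTCA, the cAMP response element, had no match in any of the 7 windows (2 starts for Ebf1 and 1 for each of the other 5 members) and occur in 10.8% and 1.79% of all promoters. The Nfia window, chr4:97581693-97581992, lies upstream of and outside the gene as annotated for the counts, which begins at 97772734. The windows of Ebf3 and Zic1 are rich in G and C, at 77% and 65.3% against a median of 52.7% over all promoters. A match is a description of letters, and the lack of one says only that the letters are not in these 300 bases.

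Prdm16, the coregulator that steers precursors to the brown rather than the muscle fate, lies at chr4:154316125-154636873 (minus strand). In WT it held 39.7, 54.9, 35.1, 43.9 and 56.3 CPM at RT and 34.7, 32.0, 41.3, 36.2 and 39.5 CPM after cold. The 2 groups overlapped, and the RT libraries were spread over a wider range. In KO the libraries held 39.3, 54.6, 48.5, 39.8 and 35.1 CPM at RT and 28.6, 36.1, 35.6, 34.2 and 39.5 CPM after cold. Here too they overlapped. The log2 change of Prdm16 was -0.32 ± 0.13 in WT (adjusted p = 0.0430) and -0.32 ± 0.13 in KO (adjusted p = 0.0453). Both calls lay at the edge of the threshold. The WT call was kept in 2 of 10 fits without 1 library, those without WT RT replicate 1 or 3, and adjusted p otherwise ran up to 0.191. The KO call was kept in 1 of 10, without KO RT replicate 5, with adjusted p up to 0.220 otherwise; both were lost under relative log expression scaling and with DESeq2 (adjusted p = 0.0514 in WT and 0.0521 in KO). Between genotypes Prdm16 differed by -0.08 at RT (95% interval -0.36 to 0.19) and -0.08 after cold (-0.36 to 0.20).

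Zfp516 showed the largest rise of the set. It held 11.9, 16.5, 15.8, 13.7 and 13.5 CPM in WT at RT and 25.9, 27.9, 36.5, 23.8 and 31.9 CPM after cold. Every cold library lay above every RT library. In KO the values were 13.7, 12.1, 13.5, 11.7 and 12.9 CPM at RT and 22.7, 43.6, 29.0, 19.2 and 26.3 CPM after cold. Here too the groups did not overlap, and KO cold replicate 2 was the highest of all 20. Zfp516 rose 2.04-fold in WT (log2 1.03 ± 0.17, adjusted p = 3.15e-05) and 2.20-fold in KO (log2 1.14 ± 0.17, adjusted p = 1.10e-05). No genotype difference was detected: the log2 difference was -0.16 at RT (95% interval -0.52 to 0.20) and -0.06 after cold (-0.40 to 0.29), and the interaction was 0.10 (-0.39 to 0.60).

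**Figure D3:**
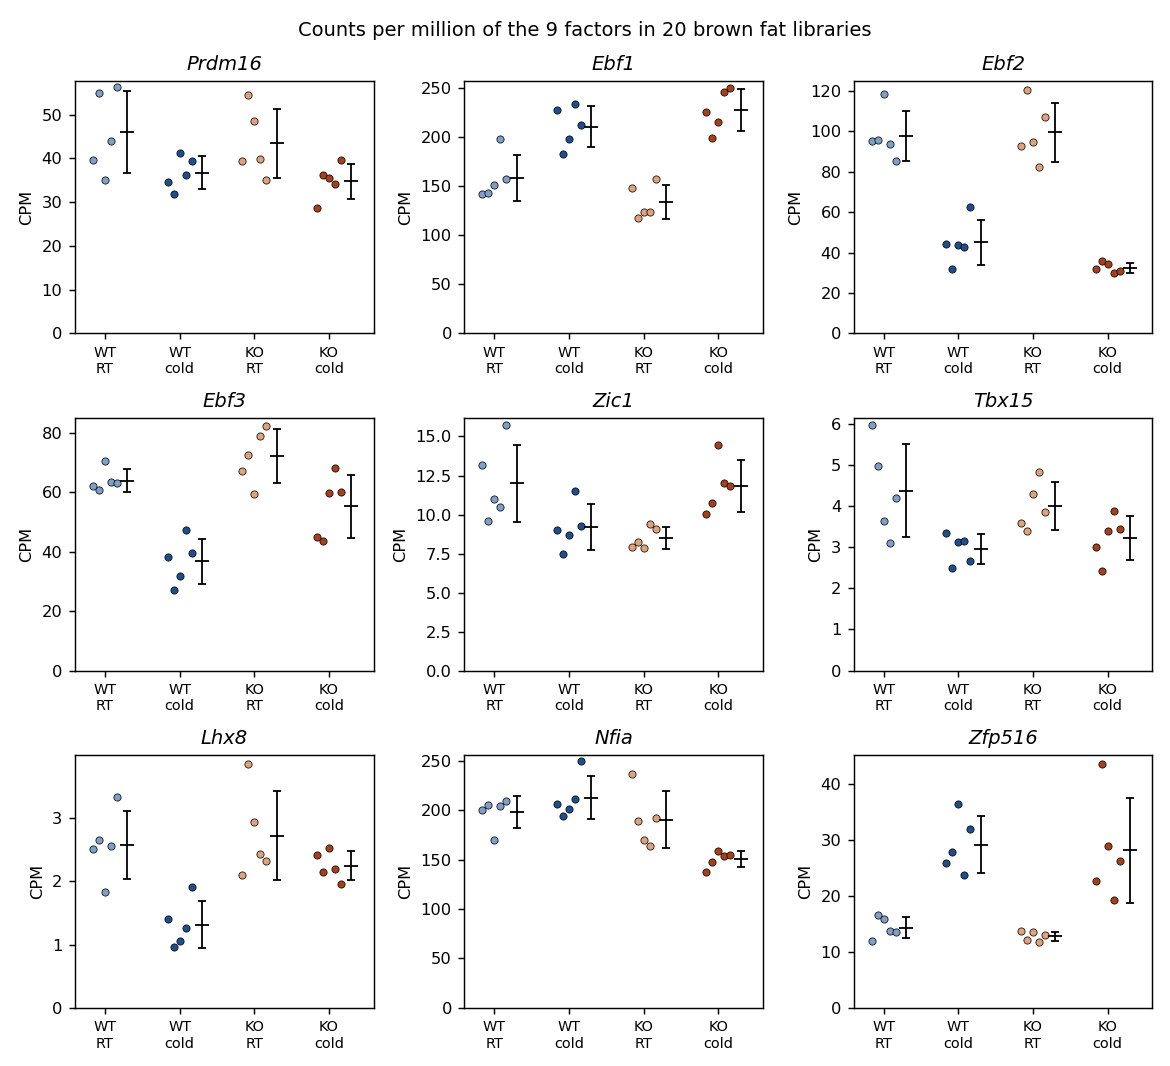
CPM of each factor in every library, 1 panel per gene on its own linear axis from 0, with the mean ± SD of 5 beside each group. Ebf2 and Zfp516 separate RT from cold in both genotypes, and Zic1 runs in opposite directions in WT and KO.

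Nfia (chr4:97772734-98118874, plus strand) encodes a nuclear factor I protein that binds brown enhancers together with PPARG. In WT its libraries held 200.5, 205, 169.5, 204 and 209.8 CPM at RT and 206, 195, 202, 211 and 250.2 CPM after cold. The groups overlapped, and WT RT replicate 3 was lower than the rest of its group. No change passed in WT (log2 0.10 ± 0.09, 95% interval -0.08 to 0.29, adjusted p = 0.326). In KO Nfia went from 237, 189, 170.3, 163 and 192 CPM at RT to 138, 148, 159, 154 and 155 CPM after cold. The KO cold libraries lay below every other library of that genotype and below all of WT cold. The share of all genes without overlap between the genotypes in the cold is not given here. Nfia fell by 20.9% with cold in KO (log2 -0.34 ± 0.09, adjusted p = 0.00220).

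After cold Nfia was lower in KO than in WT (log2 difference -0.50 ± 0.09, adjusted p = 6.82e-04). With the fibroblast and progenitor markers as a term the difference was -0.31 (adjusted p = 0.141). The sums of those markers did not overlap between these groups, so the term cannot be told apart from genotype here. The interaction, -0.44 ± 0.12, had an adjusted p of 0.119 with edgeR and 0.0458 with DESeq2, so a difference between the genotypes in the response of Nfia rested on the tool. At RT the genotypes differed by -0.06 (-0.24 to 0.13).

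The other NFI genes fell in both genotypes. Nfix fell by 55.1% in WT (log2 -1.16 ± 0.07) and 52.4% in KO, Nfic by 48.5% and 46.8%, and Nfib by 35.2% and 41.2%. All 6 changes passed, with adjusted p of 1.30e-05 or less, and did so under relative log expression scaling too. The summed NFI level per length went from 55.5 ± 4.82 to 39.2 ± 3.48 CPM per kb in WT and from 51.2 ± 2.11 to 31.5 ± 1.35 in KO. Within it, the Nfia share went from 32.8 ± 2.98% to 49.9 ± 1.40% in WT and from 34.1 ± 4.06% to 44.0 ± 2.04% in KO. In that share no RT library reached the cold libraries of its genotype.

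ZIC1, a zinc finger factor of the developing neural tube and cerebellum, marks the classical interscapular depot. In WT, Zic1 (chr9:91358058-91365810, minus strand) held 13.2, 9.60, 11, 10.4 and 15.8 CPM at RT and 8.98, 7.49, 8.67, 11.5 and 9.28 CPM after cold. The groups overlapped, with replicates 1 and 5 of WT RT highest. In KO it held 7.91, 8.27, 7.88, 9.41 and 9.09 CPM at RT and 10.1, 10.7, 14.5, 12.0 and 11.8 CPM after cold. There every cold library was above every RT library, and the KO RT libraries lay below all of WT RT. Zic1 fell by 23.6% with cold in WT (log2 -0.39 ± 0.13, adjusted p = 0.0130) and rose 1.39-fold in KO (log2 0.47 ± 0.13, adjusted p = 0.00341).

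The difference between those 2 responses was 0.86 ± 0.18 on the log2 scale (95% interval 0.48 to 1.24, adjusted p = 0.0243). Its adjusted p was 0.0502 without WT RT replicate 1, 0.0538 without KO RT replicate 3 and 0.0525 without KO cold replicate 3, with values of 0.77 to 0.84. At RT Zic1 was lower in KO (log2 difference -0.50 ± 0.13, adjusted p = 0.0395), a call kept only without WT RT replicate 2 or 4 among 10 fits that left out 1 library; otherwise adjusted p ran from 0.0513 to 0.143. After cold the difference had turned to 0.37 ± 0.13 and did not pass (adjusted p = 0.0924). The WT fall did not pass without WT RT replicate 5 (adjusted p = 0.0955) or WT cold replicate 2 (adjusted p = 0.0691). With the fibroblast and progenitor markers as a term the interaction was 0.87 (adjusted p = 0.0206) and the RT difference -0.35 (adjusted p = 0.458). Those markers summed to 615 to 813 CPM in WT RT and 754 to 1020 in KO RT.

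Zic4 lies next to Zic1 on the opposite strand and shares 60 exon bases with it. It fell with cold in both genotypes (log2 -0.78 ± 0.23 in WT and -0.68 ± 0.24 in KO, adjusted p = 0.00653 and 0.0203), from a low level of 1.57 CPM in WT at RT. Its interaction was 0.10 ± 0.34 (95% interval -0.60 to 0.80).

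Lhx8 (chr3:154306294-154330659, minus strand), a LIM homeobox gene also known from forebrain neurons and tooth buds, was the lowest of the set per length in WT at RT. Its libraries held 2.51, 2.66, 1.83, 2.55 and 3.33 CPM in WT at RT and 1.40, 0.967, 1.06, 1.25 and 1.91 CPM after cold. WT RT replicate 3, the lowest at RT, lay below WT cold replicate 5, and the other libraries separated. Lhx8 fell by 48.9% in WT (log2 -0.97 ± 0.19, adjusted p = 2.17e-04). In KO it held 2.10, 3.85, 2.94, 2.43 and 2.32 CPM at RT and 2.42, 2.16, 2.53, 2.20 and 1.96 CPM after cold, and the groups overlapped. The KO change of -0.28 ± 0.19 did not pass (adjusted p = 0.224).

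After cold Lhx8 was higher in KO, with a log2 difference of 0.77 ± 0.20 (adjusted p = 0.0166). All 5 KO libraries lay above all 5 WT libraries, and the share of all genes without overlap in this comparison is not given here. The log2 difference was 0.67 without WT cold replicate 2, the lowest (adjusted p = 0.0522). It was 1.19 with the fibroblast and progenitor markers as a term (adjusted p = 0.00357). Those markers' sums did not overlap between WT cold and KO cold, so this term cannot be told apart from genotype. The interaction of 0.69 ± 0.27 did not pass (adjusted p = 0.359), so the WT fall was not shown to differ from the KO response. Counts were small, at 36 to 144 per library.

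Tbx15 (chr3:99240381-99354259, plus strand), a T-box gene of brown and beige fat cells and of glycolytic muscle fibres, held 5.96, 4.98, 3.63, 3.10 and 4.19 CPM in WT at RT and 3.35, 2.48, 3.12, 3.15 and 2.67 CPM after cold. The groups overlapped through WT RT replicate 4. Tbx15 fell by 32.5% in WT (log2 -0.57 ± 0.16, adjusted p = 0.00455). In KO it held 3.59, 3.40, 4.30, 4.83 and 3.86 CPM at RT and 3.01, 2.43, 3.38, 3.87 and 3.44 CPM after cold, which overlapped, and the change of -0.30 ± 0.16 did not pass (adjusted p = 0.115). Genotype differences were -0.13 at RT (95% interval -0.46 to 0.20) and 0.13 after cold (-0.21 to 0.47).

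Skeletal muscle genes moved with temperature as well. Their 15 markers summed to 76.1 to 1538 CPM in WT RT and 71.2 to 129.9 after cold, and to 93.0 to 695 and 80.5 to 104 CPM in KO. Most of the sum after cold was Des, with a mean of 86.4 CPM in WT cold and 93.6 in KO cold. With cold 14 of 15 fell in WT, against 30.2 percent of all genes. In KO 14 fell and 1, Des, rose, against 31.7 and 27.5 percent, and Myh4 and Ckm had no count after cold. In WT RT the muscle sum and Tbx15 ranked the libraries alike, from replicate 1 at the top through 2, 5 and 3 to 4. In KO RT replicates 3 and 4 stood above the others in both, while the rest of the order differed. There the muscle sum was highest in replicate 3 and lowest in replicate 5. Tbx15 was highest in replicate 4 and lowest in replicate 2. The part of muscle in the values of Tbx15 was not tested. With the mean of the muscle markers as a term, the WT change of Tbx15 was -0.20 (adjusted p = 0.274), that of Zic1 -0.37 (adjusted p = 0.0601) and that of Prdm16 -0.27 (adjusted p = 0.187). Without it they were -0.57, -0.39 and -0.32. The median muscle marker changed by -5.17 on the log2 scale with cold in WT, so the term overlaps with temperature. A call lost with it cannot tell muscle content from cold. Ebf2, Ebf3, Lhx8, Ebf1 and Zfp516 kept their WT calls with that term.

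**Figure D4:**
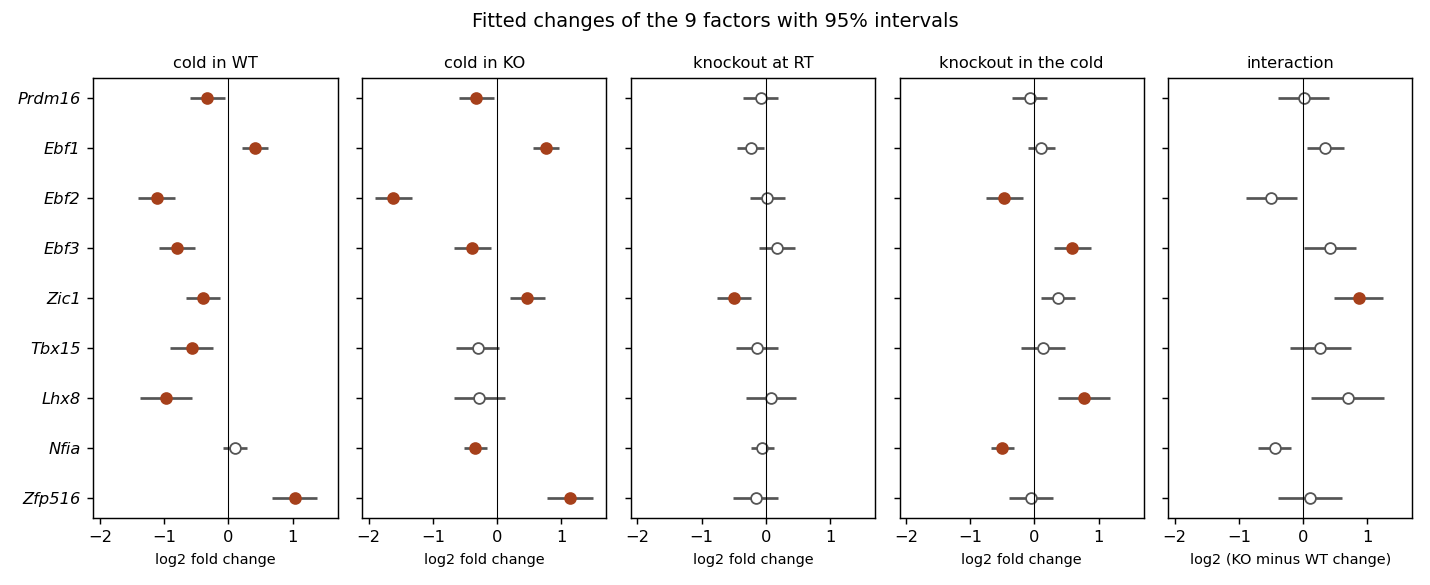
Log2 fold change of each factor in the 4 comparisons and, at the right, the interaction (KO minus WT response to cold), with 95% intervals. Filled points have an adjusted p under 0.05; the cold panels hold 8 and 7 filled points, the knockout panels 1 and 4, and the interaction panel 1.

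Side by side, the fitted changes with cold had opposite signs in the genotypes for Zic1 (-0.39 in WT and 0.47 in KO) and Nfia (0.10 and -0.34). The WT value of Nfia and the KO values of Tbx15 and Lhx8 were not called. The spread of fitted values went from -1.12 for Ebf2 to 1.03 for Zfp516 in WT, and from -1.61 to 1.14 for the same genes in KO.

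**Figure D5:**
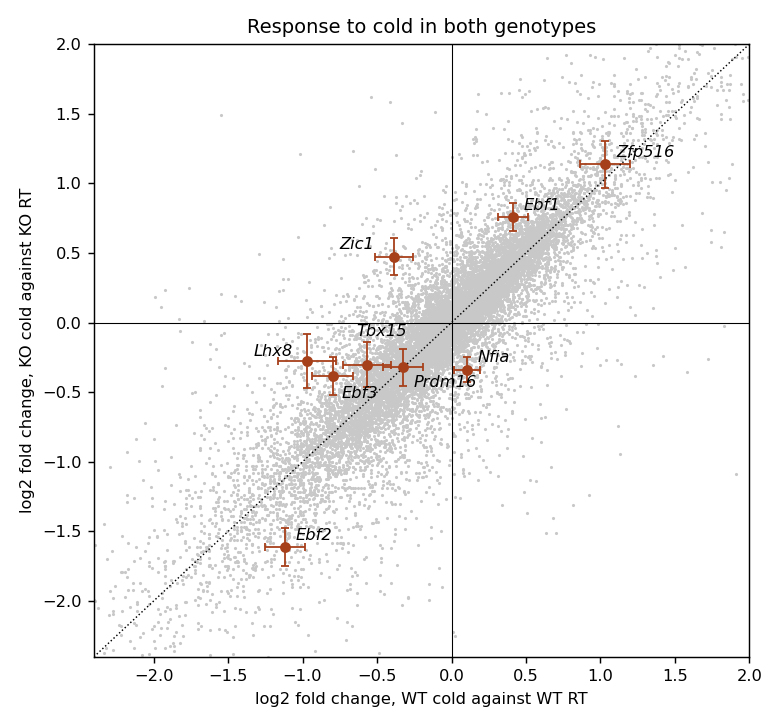
Log2 fold change with cold in WT (x axis) against KO (y axis), with bars of 1 SE for the 9 factors and grey dots for the 14794 of 15233 tested genes inside the plotted range; the dotted line marks equal change. Zic1 lies in the quadrant of a WT fall and a KO rise, and Ebf2 and Zfp516 lie at opposite ends.

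Genes that work with PRDM16 or control its turnover were taken as a list of 13, all tested. With cold 6 rose and 3 fell in WT, where 26.2 percent of all genes were higher and 30.2 percent lower. In KO 5 rose and 4 fell, against 27.5 and 31.7 percent. The list's medians were 0.10 in WT and 0.06 in KO on the log2 scale, against -0.05 over all genes in both. Ppargc1a, the coactivator that drives mitochondrial and thermogenic genes, rose by 3.24 ± 0.31 on the log2 scale in WT, from 108 to 1025 CPM (adjusted p = 1.03e-07). Med1, a Mediator subunit that PRDM16 contacts, rose by 0.75 ± 0.06, and Appbp2, a substrate receptor of the CUL2 ligase that marks PRDM16 for degradation, by 0.63 ± 0.06. Cebpa, a PRDM16 partner, fell by 74.8% in WT, Ppara by 37.9% and Ctbp2, a corepressor, by 19.6%.

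In KO the same list moved as follows with cold: Ppargc1a changed by 3.78, Cebpb by 1.75 from what little was left of it, Med1 by 0.78, Cebpa by -2.34, Ppara by -0.58 and Pparg by -0.42, all called. Between genotypes the deleted gene Cebpb was the one call at RT, where 1.32 percent of all genes were lower in KO. After cold 3 of the 13 were lower in KO, against 4.19 percent of all genes. They were Cebpb, Hlx (log2 -1.01 ± 0.17, adjusted p = 6.52e-04) and Pparg (log2 -0.47 ± 0.08, adjusted p = 4.11e-04). HLX is a homeobox factor that interacts with PRDM16, and PPARG is the nuclear receptor that all fat cells need.

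The list of 17 brown-selective genes, which the 9 factors are known to control in part, was all tested. With cold 6 rose and 4 fell in WT, against 26.2 and 30.2 percent of all genes, and 7 rose and 5 fell in KO, against 27.5 and 31.7 percent. The medians were 0.16 in WT and -0.12 in KO, against -0.05 over all genes. Dio2, which makes active thyroid hormone, rose by 3.58 ± 0.28 in WT, Ppargc1a as above, and Elovl3, a fatty acid elongase, by 1.96 ± 0.35. Falls in WT were led by Cpn2 (-0.88 ± 0.14), Adrb3 (-0.70 ± 0.21), the beta 3 adrenergic receptor, and Otop1 (-0.38 ± 0.12). In KO the largest rises were those of Dio2 (4.03), Ppargc1a and Elovl3 (2.22), and the largest falls those of Adrb3 (-2.15), Ntrk3 (-0.70) and Cpn2 (-0.67).

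Between genotypes, Dio2 (-1.14 ± 0.26) and Elovl3 (-1.68 ± 0.35) were lower in KO at RT (2 of 17, against 1.32 percent of all genes). Elovl3 (-1.42 ± 0.35) and Adrb3 (-1.34 ± 0.21) were lower in KO after cold (2 of 17, against 4.19 percent). Adrb3 was the single gene of the 17 with an interaction (-1.44 ± 0.30, adjusted p = 0.0261), against 0.742 percent of all genes. Among the 9 factors Zic1 was the single one and had the opposite sign.

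Of 13 paralogues of the 9 factors, 9 were tested, and 5 fell with cold in each genotype: Mecom, Zic4, Nfib, Nfic and Nfix. Of all genes 30.2 percent were lower in WT and 31.7 percent in KO. The median paralogue changed by -0.63 in WT and -0.68 in KO, against -0.05 over all genes. Mecom, the closest relative of Prdm16, fell in both genotypes (log2 -0.61 ± 0.08 in WT and -0.75 ± 0.08 in KO), where Prdm16 itself changed by -0.32 and -0.32. Tbx18, a relative of Tbx15, was lower in KO at RT (log2 -0.56 ± 0.14, adjusted p = 0.0297) and after cold (log2 -0.64 ± 0.14, adjusted p = 0.00550). Nfib was lower in KO after cold (log2 -0.35 ± 0.10, adjusted p = 0.0275), as Nfia was.

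For each factor the 2 genes of most similar pattern were sought among 8963 tested genes with a mean of at least 5 CPM, by the root mean square difference of centred log2 CPM over the 20 libraries. A smaller value means a closer pattern, and the libraries share their groups and temperatures. Nfia lay closest to Ginm1 (0.14) and Vps54 (0.14), and Ebf1 to Khdc4 (0.13) and Noc2l (0.13). For Ebf2 the nearest were Emc9 (0.19) and Efna5 (0.19), and for Ebf3 they were Pald1 (0.17) and Mif4gd (0.20). These distances were well under the factors' own SD of 0.75 for Ebf2 and 0.44 for Ebf3.

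Prdm16 was nearest to Nadk (0.15) and Bscl2 (0.17), and Tbx15 to Txndc15 (0.20) and Snx9 (0.20). Zfp516 had Taf1d (0.23) and Fam214a (0.23) as its neighbours, and Lhx8 had Sept9 (0.26) and Sema4a (0.28). Zic1 was nearest to Hoxa5 (0.20) and Armh3 (0.21). Against these distances the factors' own SDs were 0.29 for Zic1, 0.23 for Nfia, 0.32 for Tbx15 and 0.26 for Prdm16.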

How the data were processed

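Total RNA of brown adipose tissue was made into stranded mRNA libraries, per the labels' protocols. The submitters' processing notes name Trim Galore 0.6.0, STAR 2.7.8a and the builds GRCm38.p6 and mm10. The deposited files are STAR tables of raw counts per gene without normalization; the fourth column, reverse-strand counts, was used, which held 94.5 to 95.7% of stranded counts. Rows naming no gene (4 per table) held 27.6 to 30.8% of reads and were left out. Symbols and coordinates came from GENCODE M21 (GRCm38), which names 55144 of 55471 gene IDs and all 9 members at the same ID version; promoters came from RefSeq.

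Counts were filtered with edgeR's filterByExpr (minimum count 10, total 15), scaled by trimmed mean of M values and fitted with edgeR 4.0.16 (limma 3.58.1, R 4.3.3) as 4 group means by robust quasi-likelihood, with Benjamini-Hochberg adjustment over 15233 genes and a threshold of 0.05. Intervals are at 95% on 16 residual degrees of freedom before moderation. Log2 CPM values use a prior count of 2. The members and lists were chosen with earlier results of these data known. Named beyond the members were Cebpb, up to 3 genes of largest called change per direction in each list with at least 1 CPM, and the 2 nearest genes of each member; others in the text were chosen after their values were seen. Replicate numbers did not pair the libraries: same-numbered libraries' deviations correlated from -0.18 to 0.27, over 0.1 in 7 of 20 pairs. No libraries of a group agreed within sampling noise. Alternatives were relative log expression scaling, no filter, unstranded counts, a replicate block, marker terms, fits of only the groups compared, DESeq2 1.42.0, and leaving out libraries. The fit was tested on simulated data.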

Additional observations from a re-analysis of the deposited data

Results flagged for a closer look

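Nfia in WT RT replicate 3, at 169.5 CPM, lay far from the other 4 libraries of its group, which held 200.5 to 209.8 CPM. Its gap to the nearest library was 0.788 of the group's range on the log2 scale, above the limit of 0.71 for 5 libraries. In all 36 groups of 5 libraries (9 factors in 4 groups) were examined, and chance flags about 1 in 20 groups. The same library was the highest of WT RT in Ebf3, with a ratio of 0.705 on the log2 scale and 0.72 on the CPM scale, and in Ebf2, with 0.652 and 0.689. WT RT replicate 4 had 0.701 and 0.735 in Ebf1.

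Zic1 responded to cold differently in the 2 genotypes, with an interaction of 0.86 on the log2 scale (adjusted p = 0.0243 with edgeR and 0.00142 with DESeq2). Its libraries fell from a mean of 12.0 ± 2.48 to 9.19 ± 1.46 CPM in WT and rose from 8.51 ± 0.698 to 11.8 ± 1.68 CPM in KO (SD, n = 5).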

How the results depend on the processing

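No member's called change turned its direction under any alternative run, and the directions of Ebf2, Ebf1 and Zfp516 with cold were called under all of them. Of the members called, cold in WT left 5 with the skeletal muscle markers as a term. At RT the knockout called 1 with edgeR, 2 at an unadjusted p under 0.05 and 1 with DESeq2, and left 0 with only the groups compared and 0 with the fibroblast and progenitor markers as a term, an alternative chosen after seeing the data. In the cold it left 2 with only the groups compared and 1 with that term. The interaction gave 2 with DESeq2. Without single libraries the counts ran from 6 to 8 (cold in WT), 5 to 6 (cold in KO), 0 to 1 (knockout at RT), 3 to 4 (knockout in the cold) and 0 to 1 (interaction). The cause was not tested. The replicate block changed the call of Ebf2 between genotypes in the cold (adjusted p = 0.0645) and no other member's. Over all genes, the knockout at RT called 411, or 629 with DESeq2, 111 with the fibroblast term, 267 without WT RT replicate 5 and 269 without KO RT replicate 4. In the cold it called 1173, or 390 with the fibroblast term. The interaction called 113, or 269 with DESeq2 and 74 without both intermediate libraries. Depth limits Lhx8 and Tbx15 most, whose lowest counts were 36 and 62.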

Other observations

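Factors known to oppose the brown program were followed as a list of 11, of which 7 were tested. With cold 4 fell in WT, where 30.2 percent of all genes were lower, and in KO 5 fell and 1 rose, against 31.7 and 27.5 percent. The medians were -0.79 in both, against -0.05 over all genes. Zfp423, a zinc finger factor that binds EBF2 and holds cells in a white state, fell in WT (log2 -1.19 ± 0.18, adjusted p = 1.61e-05) and in KO (log2 -1.15 ± 0.19, adjusted p = 2.39e-05), so it went down together with Ebf2. Rbl1, a pocket protein of the cell cycle, fell by 62.0% in WT, and Hoxc8, a posterior homeobox gene, by 43.7%. In KO Nrip1, a corepressor of nuclear receptors, rose by 0.99 ± 0.29 (adjusted p = 0.00630). Twist1, a helix-loop-helix factor that holds back PGC-1 alpha, fell in WT (log2 -0.79 ± 0.10). It fell in KO too, with a log2 change of -0.79 under relative log expression scaling (adjusted p = 9.44e-07). Twist1 was higher in KO at RT by 0.39 ± 0.10 (adjusted p = 0.0359) and after cold by 0.36 ± 0.10 (adjusted p = 0.0324). At RT it was the 1 of 7 called between genotypes, against 2.70 percent of all genes in either direction. After cold 1 of the 7 was higher in KO and 1 was lower, against 3.51 and 4.19 percent of all genes. Rb1, of the same list, averaged 63.81 CPM in KO after cold and 82 CPM in WT.

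Of 10 factors of the dermomyotome and muscle lineages, 5 were tested. Meox1, a homeobox gene of the somites, rose with cold by 0.63 ± 0.17 in WT (adjusted p = 0.00388) and 0.64 ± 0.17 in KO (adjusted p = 0.00319). Eya1, a transcriptional coactivator, fell in both genotypes, from a mean of 0.451 to 0.102 CPM in WT.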
